A study of Macaca mulatta and Mus musculus and Rattus norvegicus with 12 samples.

Results

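The HOXB genes studied here are HOXB2 to HOXB9, 8 neighbouring members of the HOXB cluster. They were found by their symbol in the count tables of 3 species. All 8 had a row among the 38599 symbols of mouse and the 35259 symbols of rat. In rhesus macaque 3 of the 8 (HOXB3, HOXB5 and HOXB7) had a row among 28641 symbols, and HOXB2, HOXB4, HOXB6, HOXB8 and HOXB9 had none under those names, so their macaque levels were not analysed here.

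The 12 libraries hold poly(A)+ RNA of osteocyte-enriched bone, from the calvaria (the vault of the skull) and from the tibia. Osteocytes are the long-lived cells that sit inside the mineralised matrix. Mouse (C57BL6, 4 months old, female) contributed M4 and M8 from calvaria and, from tibia, M5 and M7, and each of these was a pool of 3 animals. Rat (Wistar, 6 months old, female) contributed 1 pool of 2 animals per site, R1 from calvaria and R3 from tibia, so rat values have no replicates. Macaque (female) contributed 3 animals per site, calvaria as G1, G3 and T1 and tibia as G2, G4 and T2, with an age of 4 to 6 in months by the labels and in years by the study's methods. By the study's account, skull and tibia were taken as pairs from the same animals or pools, so the sites do not hold separate animals. Which libraries form a pair is not named, and the main fits did not use the pairing. No group was treated or carried an engineered allele. Each library is bone tissue rather than sorted cells, and marrow was spun out of the rodent tibias. The study compared the sites to ask how osteocytes of a weight-bearing and a protective bone differ. Between 7951585 and 16826535 reads per library were counted on genes, and a gene with no reads could have up to 3, which is between 0.178 and 0.377 CPM (counts per 1000000 reads on genes). These limits and the intervals given for ratios cover counting error only.

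HOX genes encode transcription factors that bind DNA through a homeodomain and give cells along the head-to-tail axis their position. They lie in clusters, and the order of the genes on the chromosome follows the order of their expression in the embryo, so low-numbered genes such as HOXB2 start furthest forward, in the hindbrain, and high-numbered genes such as HOXB9 start in the trunk. Most of the calvaria forms from cranial neural crest and head mesoderm, and the tibia from limb-bud mesoderm. Blood-forming cells of the marrow also use HOXB genes, among them HOXB4.

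In mouse the members lie on the plus strand of chromosome 11 (GENCODE vM21 on GRCm38) from HOXB9 at chr11:96271457-96276595 to HOXB2 at chr11:96350525-96354012, with the higher numbers at the lower coordinates. The part by which they are most alike is the homeobox, which encodes the homeodomain. Codons 41 to 60 of the mouse homeobox, which hold most of the helix that reads DNA, are given for 5 members (HOXB2 and HOXB6 to HOXB9) because reads from such a stretch would be the ones most easily assigned to the wrong member. Capitals mark bases that differ from HOXB7.
HOXB2: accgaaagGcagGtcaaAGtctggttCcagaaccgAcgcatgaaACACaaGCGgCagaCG
HOXB6: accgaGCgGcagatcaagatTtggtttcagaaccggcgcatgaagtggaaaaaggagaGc
HOXB7: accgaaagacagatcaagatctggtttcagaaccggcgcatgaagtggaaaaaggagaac
HOXB8: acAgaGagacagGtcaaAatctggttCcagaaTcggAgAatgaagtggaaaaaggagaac
HOXB9: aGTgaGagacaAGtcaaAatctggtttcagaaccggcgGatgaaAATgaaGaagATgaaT

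Over the whole homeobox of 180 bases, the 10 pairs of these 5 members were identical at between 61.7% (HOXB7 and HOXB9) and 88.9% (HOXB6 and HOXB7) of positions. The longest run of identical bases was 37, in HOXB6 and HOXB7, so a read of 125 bases that covers it also covers bases that differ. In the GENCODE models, no window of 125 bases of mouse HOXB4 to HOXB9 transcripts occurred in a transcript of another gene, on either strand. The counted rows of some members are longer than those models, such as HOXB3 (a span of 40837 bases against 24605) and HOXB7 (4667 against 3540). Bases outside the models were not checked for overlap with neighbours. HOXB3 shared 49.1% and HOXB2 23.8% of such windows with the antisense gene Hoxb3os, which lies across both. The authors counted without regard to strand, so reads of HOXB3 and HOXB2 cannot be told apart there from reads of that antisense gene. Hoxb5os, also antisense, runs across HOXB5 and HOXB6 and had a row in mouse, with 3 reads in M5 and none in the other libraries.

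In mouse, M5 and M7 both exceeded M4 and M8 for every member, and 3 of the 8 passed the test, all higher in tibia (HOXB2, HOXB6 and HOXB7). The test was edgeR's quasi-likelihood test within the species, with a false discovery rate (the adjusted p) under 0.2 and a fold change over 1.1. By that test 1.57% of the 22339 genes with a read were higher in tibia and 0.712% were higher in calvaria, and 21.6% of all genes had both tibia libraries above both calvaria libraries. The log2 fold changes below are calvaria over tibia, so a negative value means more in tibia, and their median over the 8 members was -3.83 against 0.05 over all genes tested. In bulk tissue, fewer cells of a type and less RNA per cell cannot be told apart.

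HOXB2, a hindbrain gene of the embryo, had 17 reads in M4 and 16 in M8 against 113 in M5 and 74 in M7. Its level was 1.12 ± 0.0424 CPM in calvaria and 5.90 ± 1.15 in tibia (SD, n = 2 per site), and its log2 fold change was -2.31 (SE 0.52, edgeR adjusted p = 0.0568). HOXB3, which also acts in the hindbrain and in blood progenitors, had 18 and 38 reads in calvaria and 78 and 46 in tibia, a log2 fold change of -0.91 (SE 0.58, edgeR adjusted p = 0.822). The lowest tibia library of HOXB3, M7 with 3.17 CPM, stood just above the highest calvaria library, M8 with 2.73.

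HOXB4, known for expanding haematopoietic stem cells, was the most abundant member per length in every rodent library. It had 183 reads in M4, 269 in M8, 405 in M5 and 340 in M7. In CPM this was 11.8 and 19.3 in calvaria and 24.1 and 23.4 in tibia, a log2 fold change of -0.52 (SE 0.32, edgeR adjusted p = 0.812). The tibia libraries lay close together and the calvaria libraries did not, and M8, the higher of the pair, came near the tibia.

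HOXB6, a member expressed in limb bud and in erythroid progenitors, had 3 reads in M4, none in M8, 62 in M5 and 47 in M7, a log2 fold change of -4.93 (SE 0.95, edgeR adjusted p = 0.0229). HOXB7, whose promoter is widely used to mark the ureteric bud of the kidney, had no read in either calvaria library and 29 and 20 in M5 and M7, a ratio of CPM of 15.4 when calvaria is set to 3 reads over the site, with a 95% counting interval that starts at 12 (edgeR adjusted p = 0.0537). HOXB7 was the 1 mouse member without a calvaria read.

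The remaining mouse members did not pass the test and had few reads. HOXB5, an enteric neural crest gene, had 1 read in each calvaria library and 25 and 14 in tibia, a ratio of CPM of 18.4 (95% counting interval 4.75 to 157, edgeR adjusted p = 0.244). HOXB8, which holds myeloid progenitors in an immature state when overexpressed, had 2 and 0 reads in calvaria and 21 and 14 in tibia, a ratio of 16.5 (4.23 to 141, edgeR adjusted p = 0.357). HOXB9, which patterns the rib cage together with other HOX9 genes, had 0 and 1 reads in calvaria and 11 and 9 in tibia, a ratio of 18.8 (3.01 to 780, edgeR adjusted p = 0.637).

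The mouse calls rest on few libraries. Without tibia library M5 only HOXB6 passed, without M7 HOXB6 and HOXB7, without calvaria library M4 HOXB2, HOXB5, HOXB6, HOXB7 and HOXB8, and without M8 all 8. The share of all genes called moved too, from 2.28% with all libraries to 1.01% without M5, 1.44% without M7, 34.4% without M4 and 17.6% without M8, so the larger member counts came with more calls over all genes. With 1 library left at a site, it is assumed to vary like those of the other site. The log2 fold change of HOXB6 was -4.08 without M8 and -8.68 without M4, after which calvaria had no HOXB6 read. Those of HOXB3 and HOXB4 were -0.42 and -0.20 without M4, and -1.72 and -0.98 without M8. No member passed where genes with few reads were removed first by filterByExpr (7 members tested, 5 of them with an unadjusted p under 0.05).

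**Figure D1:**
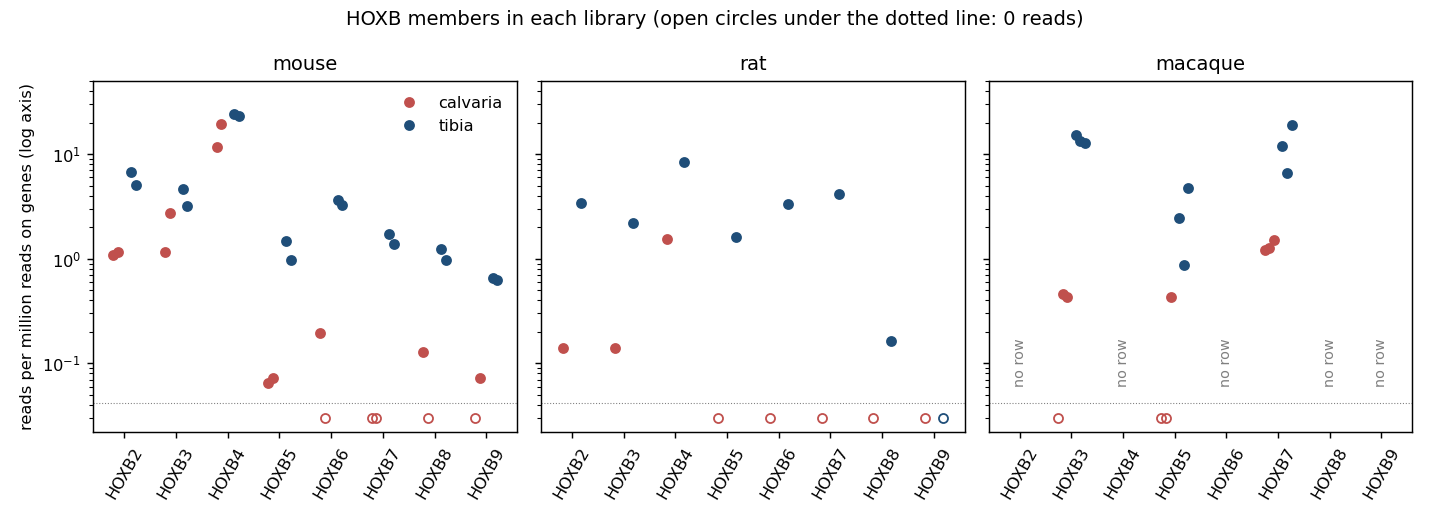
CPM, reads per 1000000 reads on genes (log axis), of each HOXB member in cluster order, 1 point per library, with calvaria in red and tibia in blue and 1 panel per species. Open circles under the dotted line are libraries with 0 reads, and "no row" marks the 5 members without a macaque row. In mouse all 8 members have both tibia points above both calvaria points.

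In rat, all 7 members with a read were higher in the tibia library, and 6 of them passed a log2 ratio of -2 with 1 read added to each count. That threshold was passed by 8.14% of the 19234 genes with a read towards tibia and by 1.55% towards calvaria. The median log2 ratio of the members was -4.06, or -3.72 with calvaria set to 3 reads for members without any and HOXB8 left out. Over all genes the median was -0.29, so most genes also leaned towards tibia by this ratio, and with TMM factors it was -0.005.

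HOXB2 had 2 reads in R1 and 42 in R3, a ratio of CPM of 24.5 (95% counting interval 6.37 to 209). HOXB3 had 2 and 27 reads, a ratio of 15.7 (3.95 to 137). HOXB4 had 22 and 103 reads, a ratio of 5.46 (3.42 to 9.08), and was the only rat member with more than 2 calvaria reads. HOXB5, HOXB6 and HOXB7 had none in R1 and 20, 41 and 51 reads in R3, ratios of 7.77, 15.9 and 19.8 when calvaria is set to 3 reads, with 95% counting intervals that start at 5.75, 12.4 and 15.5. HOXB8 had 0 and 2 reads and HOXB9 none in either library, so no ratio is given for them. The rat row of HOXB5 spans 41080 bases, against a mouse gene of 2786 bases, so it covers more of the cluster than that gene does.

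In macaque all 3 members were higher in each of the 3 tibia libraries than in any calvaria library, and all 3 passed the test. By the same test 9.43% of the 18894 genes with a read were higher in tibia and 10.3% were higher in calvaria, and 17.4% had every tibia library above every calvaria library. The median log2 fold change of the 3 members was -3.88, against 0.03 over all genes.

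HOXB3 had 0, 4 and 4 reads in calvaria (G1, G3 and T1) and 123, 106 and 131 reads in tibia (G2, G4 and T2). Its level was 0.297 ± 0.258 CPM in calvaria and 13.7 ± 1.25 in tibia (SD, n = 3 per site), and its log2 fold change was -5.23 (SE 0.54, edgeR adjusted p = 2.6e-09). HOXB5 had 0, 0 and 4 reads in calvaria and 20, 7 and 49 in tibia, a log2 fold change of -3.88 (SE 0.975, edgeR adjusted p = 0.00539). The tibia of G4, with 7 reads, was close to the calvaria of T1, with 4, and the tibia libraries spread more for HOXB5 than for HOXB3.

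HOXB7 had 10, 11 and 14 reads in calvaria and 98, 52 and 194 in tibia, so it was the one macaque member with reads in every calvaria library. Its level was 1.33 ± 0.155 CPM in calvaria and 12.4 ± 6.14 in tibia (SD, n = 3 per site), a log2 fold change of -3.04 (SE 0.45, edgeR adjusted p = 3.14e-06). All 3 macaque members passed in every alternative that tested them, leaving out each library included. HOXB5 depended most on single libraries, with a log2 fold change between -3.09 (without T2) and -7.54 (without T1, after which calvaria had no HOXB5 read) and an edgeR adjusted p of up to 0.147 (without G3).

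A further macaque row carries the symbol LOC697211, whose gene number a newer macaque annotation gives to HOXB8. The row spans 30732 bases with 5044 exonic bases, whereas that annotation gives HOXB8 a length of 1507 bases, so it was not counted as HOXB8. It had 43, 94 and 22 reads in calvaria and 111, 173 and 122 in tibia, a log2 fold change of -1.15 (SE 0.38, edgeR adjusted p = 0.0401).

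**Figure D2:**
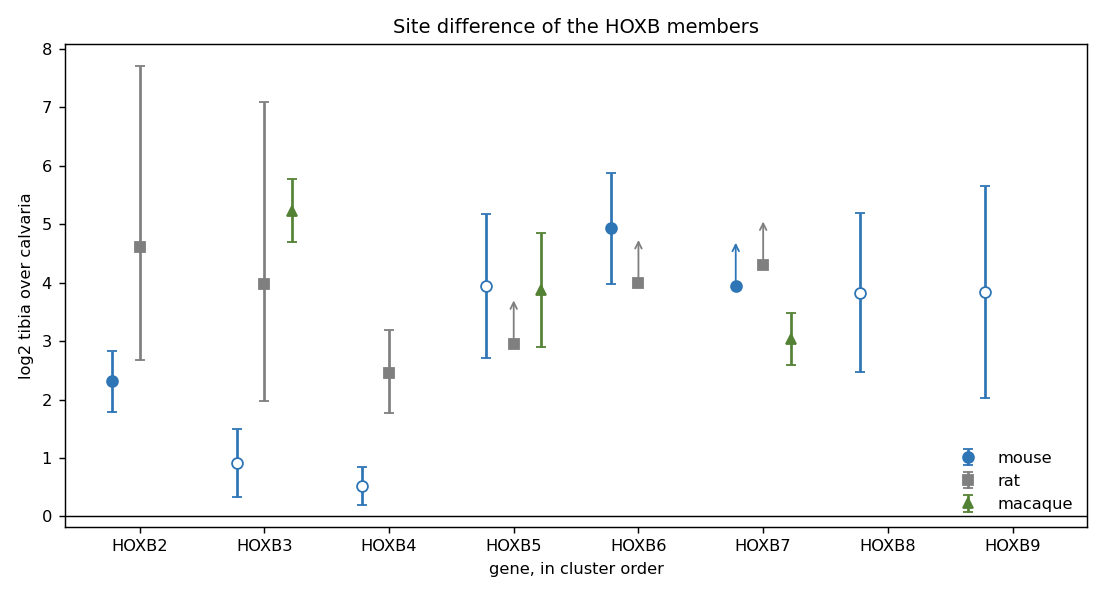
Difference between tibia and calvaria of each HOXB member on a log2 scale of tibia over calvaria, in cluster order. Mouse and macaque values are from the edgeR fit with their standard error and are filled where the gene passed the test, rat values are ratios of CPM with their 95% counting interval, and points with an arrow set calvaria to 3 reads for members without calvaria reads. HOXB3 and HOXB4 have mouse differences of 0.91 and 0.52, the smallest in the plot, and HOXB3 has the largest in macaque, 5.23.

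The site difference was compared directly between mouse and macaque for the 3 members measured in both, by the species by site term of a fit over their 10 libraries. HOXB3 differed between the species, and 5.65% of the 8196 shared genes did so by the same test. Its log2 fold change was -0.91 in mouse and -5.23 in macaque, a difference of 4.32 (SE 0.79 from the separate fits, edgeR adjusted p = 0.0658). This call was lost without mouse tibia M5 (edgeR adjusted p = 0.283) or M7 (0.284), where the share of all genes called was 0.403% and 0.451%. The mouse row of HOXB3 has 7524 exonic bases and the macaque row 3854. The strand overlap of mouse HOXB3 and the unchecked bases of its longer row apply to this comparison too. Mouse and macaque were run on different lanes, so lane and species cannot be told apart. HOXB5 did not pass, with -3.94 in mouse and -3.88 in macaque, a difference of 0.015 (SE 1.57 from the separate fits, edgeR adjusted p = 0.992), a standard error that leaves room for differences of several log2 units. HOXB7 did not pass either (edgeR adjusted p = 0.262), and its fitted difference is not given because mouse calvaria had no reads.

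Levels of different members can be compared only per length, here as CPM per 1000 exonic bases (RPKM). In mouse tibia HOXB4 stood highest, at an RPKM of 8.51 in M5 and 8.28 in M7. It was followed by HOXB2 (2.54 and 1.92) and HOXB6 (2.17 and 1.90), which overlapped each other. HOXB7 (0.767 and 0.613), HOXB5 (0.784 and 0.508) and HOXB3 (0.616 and 0.421) also overlapped, while HOXB8 (0.444 and 0.343) overlapped HOXB3 and HOXB9 (0.242 and 0.229) lay below all others.

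In mouse calvaria HOXB4 stood highest again, at 4.16 in M4 and 6.83 in M8. HOXB2 followed at 0.412 and 0.434 and HOXB3 at 0.154 and 0.362, and no library of HOXB5 to HOXB9 exceeded 0.113. In rat tibia the order was HOXB4 at 4.76, HOXB7 at 3.44, HOXB2 at 2.34 and HOXB6 at 1.84, ahead of HOXB3 at 0.633, HOXB5 at 0.259 and HOXB8 at 0.101. In macaque tibia HOXB7 stood above HOXB3 in every animal (8.92 against 3.92 in G2, 4.84 against 3.46 in G4 and 13.9 against 3.29 in T2), and HOXB5 was lowest, at 1.18, 0.423 and 2.28.

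The members were also divided by their place in the cluster, a division chosen after their values were seen. Together, HOXB2, HOXB3 and HOXB4 made up 96.1% and 99.2% of the summed level per length of the 8 members in the mouse calvaria libraries M4 and M8, and 72.6% and 74.7% in the tibia libraries M5 and M7. In rat they made up 100% in calvaria, where HOXB5 to HOXB9 had no read, and 57.8% in tibia. Of these 3, macaque had a row for HOXB3 alone, and there the direction was the opposite. HOXB3 held 0%, 11.3% and 7.78% of the summed level of the 3 macaque members in calvaria (G1, G3 and T1). Its tibia shares were larger, at 28.0%, 39.7% and 16.9% (G2, G4 and T2). The share of HOXB4 alone was 84.6% and 88.8% in M4 and M8, and 52.9% and 58.3% in M5 and M7. HOXB6 and HOXB7 held larger shares in tibia than in calvaria in both rodents. HOXB6 held 13.5% and 13.4% of mouse tibia and 13.8% of rat tibia, and HOXB7 held 4.77% and 4.31% of mouse tibia and 25.7% of rat tibia.

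**Figure D3:**
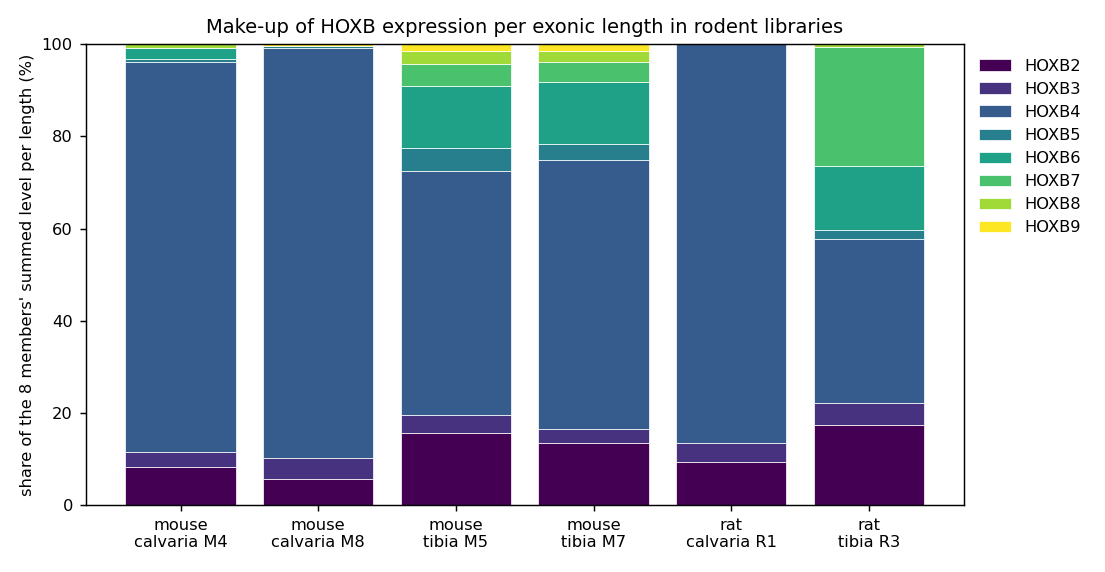
Share (%) of the summed level per exonic length of the 8 HOXB members held by each member, 1 bar per rodent library, from HOXB2 at the bottom to HOXB9 at the top. HOXB4 fills 84.6% and 88.8% of the mouse calvaria bars and 86.5% of the rat calvaria bar, and less of every tibia bar.

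Marrow and blood cells also express HOXB genes, so their markers are given beside the members. Summed over a list of neutrophil genes, every calvaria library was above every tibia library in each species, at 90700 to 114000 against 58200 to 63500 CPM in mouse, 79500 against 42800 in rat and 35300 to 52300 against 7770 to 13800 in macaque. The 5 of 8 neutrophil genes with a macaque row were all called higher in calvaria, against 10.3% of all macaque genes. General leukocyte genes overlapped in mouse (1120 to 1780 against 1150 to 1260) and were higher in calvaria in rat (1010 against 713) and macaque (242 to 309 against 110 to 136). Markers of haematopoietic stem and progenitor cells overlapped in mouse (319 to 525 against 402 to 478) and macaque (56.1 to 73.7 against 34.2 to 68.1), and were 158 in rat calvaria and 118 in rat tibia. In mouse MYB made up 65.4% of the progenitor sum, and without it, a choice made after the values were seen, the sum was higher in tibia (160 in both libraries against 132 and 145). Of the 8 genes 5 had a negative log2 fold change, among them KIT (-0.83), GATA2 (-0.63) and HLF (-0.89), none of which passed (edgeR adjusted p = 0.47, 0.79 and 0.331). Of the mouse calvaria libraries, M8 had more leukocyte reads than M4 (1780 against 1120) and more HOXB4 (19.3 against 11.8). The tibia libraries M5 and M7 had leukocyte sums of 1260 and 1150, with HOXB4 at 24.1 and 23.4. A relation between the leukocyte sum and HOXB4 was not tested.

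Other lists did move with the members. Osteocyte genes, which define the labelled cell type, were higher in every tibia library, at 8010 to 10400 against 979 to 1850 CPM in mouse, 7240 against 500 in rat and 7240 to 18800 against 4450 to 5470 in macaque, where SOST and PDPN had no row under those names. MEPE made up 97.9% of the macaque sum and was the 1 called of 3 (-1.40, SE 0.23, edgeR adjusted p = 2.38e-05), and without it the sites overlapped, at 172 to 281 CPM in tibia and 171 to 193 in calvaria. DMP1 (-0.21) and PHEX (0.21) did not pass in macaque (edgeR adjusted p = 0.573 and 0.644). In rat SOST had 5 reads in calvaria and 15 in tibia. Cartilage genes were higher in tibia in mouse (495 to 635 against 11.2 to 66.1) and rat (4.74 against 0.281), and overlapped in macaque (0.755 to 6.09 against 5.5 to 9.42). Skeletal muscle genes were higher in rat tibia, at 843 against 7.44 CPM, and overlapped between the sites in mouse and macaque. Within each of the 3 macaque pairs assumed from neighbouring labels, skeletal muscle was higher in tibia (2.87 in G1 and 10.6 in G2, 4.29 in G3 and 8.93 in G4, 0.75 in T1 and 3.29 in T2), and ACTA1, a muscle actin, passed (-1.94, SE 0.66, edgeR adjusted p = 0.0503). Within the same pairs endothelial genes were higher in tibia in 3 of 3, and progenitor and cartilage genes higher in calvaria in 3 of 3. Whether these cells had a part in the HOXB differences was not tested.

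**Figure D4:**
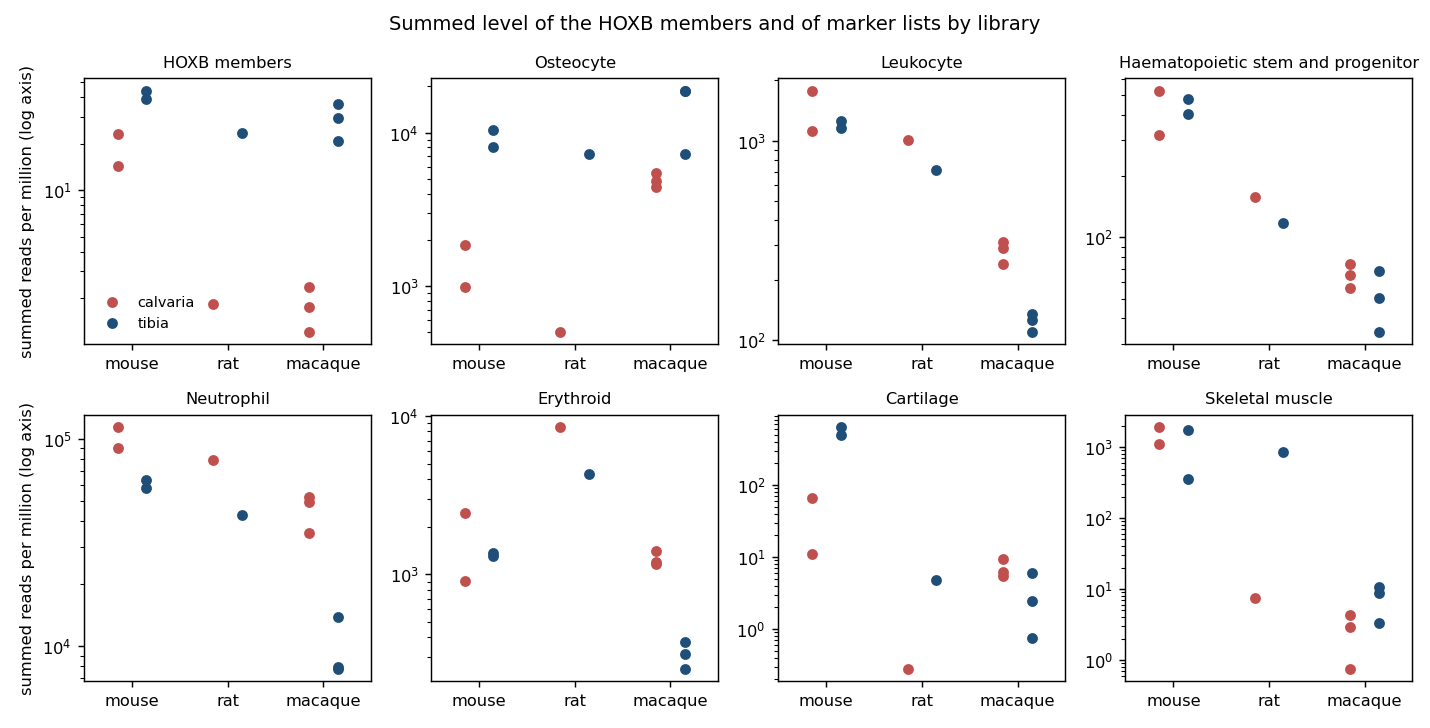
Summed CPM (log axis) of the HOXB members and of 7 marker lists, 1 point per library, with calvaria in red and tibia in blue; the macaque sum holds 3 members. The HOXB members and the osteocyte genes have every tibia point above every calvaria point in each species, whereas the neutrophil genes have the reverse.

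Genes within and next to the cluster that are not among the 8 members had few calls. HOXB1, the next gene beyond HOXB2, had 0 reads in M4 and 2 in M8 and none in M5 or M7, and no read in rat or macaque. HOXB13, the far end of the cluster, had no read in any library. Of the flanking genes, CALCOCO2, an autophagy receptor, was called higher in macaque tibia (-0.50, SE 0.20, edgeR adjusted p = 0.109). CALCOCO2 and TTLL6 had no read in mouse or rat, and no other flanking gene was called in mouse or passed the ratio in rat. SKAP1, which lies beyond HOXB1, had 21 and 33 reads in mouse calvaria (M4 and M8) and 95 and 89 in tibia (M5 and M7). Its log2 fold change of -1.57 (SE 0.51, edgeR adjusted p = 0.27) did not pass, and it was -0.15 in rat and 1.25 in macaque. UBE2Z and SNF8 lay at 0.08 and 0.37 in mouse. MIR10A, the microRNA gene between HOXB4 and HOXB5, had 4 reads in M4, 3 in M8 and none in either tibia library, and did not pass (edgeR adjusted p = 0.79).

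HOX proteins bind DNA together with cofactors of the TALE class, PBX, MEIS and PKNOX. Of 9 such genes in mouse, 1 was called, and it was MEIS2, higher in calvaria at a log2 fold change of 2.77 (SE 0.62, edgeR adjusted p = 0.0537). MEIS2 was also the 1 called of 4 measured in macaque (1.11, SE 0.38, edgeR adjusted p = 0.0503) and the 1 of 9 past the ratio in rat (2.17), so it lay opposite to the HOXB members in all 3 species. Of the regulators of HOX genes, 0 of 20 tested passed in mouse by edgeR, DESeq2 or the exact test (3, 1 and 1 had an unadjusted p under 0.05), and 3 of 10 passed in macaque by edgeR. These were EZH2, a repressor of HOX genes, higher in calvaria (1.55, SE 0.24, edgeR adjusted p = 1.0e-05), and CBX7, a Polycomb reader (-0.84, SE 0.19, edgeR adjusted p = 0.00203), and the retinoic acid receptor RARB (-1.07, SE 0.37, edgeR adjusted p = 0.0549), both higher in tibia. In rat, 1 of 19 passed the ratio, the hindbrain gene EGR2 at -3.41. Over all genes and in either direction, 2.28% were called in mouse and 19.7% in macaque, and 9.69% passed the ratio in rat. Whether the cofactors or the regulators differed from these shares was not tested.

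The other HOX clusters were read in the same way for comparison. In mouse 6 of 10 HOXA, 6 of 9 HOXC and 1 of 7 HOXD genes with a read were called higher in tibia. This compares with 3 of 8 HOXB members and 1.57% of all genes. Every one of these HOX genes had a negative log2 fold change, with a median of 0.05 over all genes. In macaque 5 of 5 HOXA, 2 of 2 HOXC and 2 of 2 HOXD genes were called higher in tibia (9.43% of all genes). In rat 3 of 3, 5 of 6 and 2 of 3 passed the ratio towards tibia (8.14% of all genes). Differences between clusters were not tested.

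The genes whose pattern over the 12 libraries was most like that of the summed HOXB members were ranked by Pearson's r of log2 CPM (0.5 added), centred within each species. Among the 6006 genes measured in all 3 species, the 10 highest were PAPPA (0.974), NFRKB (0.972), HOXB3 (0.969), LASP1 (0.960), HOXB7 (0.953), ARID1B (0.951), BMP4 (0.947), SPOP (0.944), HOXA2 (0.943) and KCNJ8 (0.942). Thus 3 of the 10 were HOX genes, of 6 HOX genes ranked, and HOXB3 and HOXB7 are part of the sum they were compared with. The median r over all genes was 0.321, the libraries share sites and species, and no test was made.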

How the data were processed

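Per the labels and the study's methods, periosteum was removed, bone was digested with collagenase, marrow was spun out of the rodent tibias, and poly(A)+ RNA was sequenced as single reads of 125 bases. The authors mapped reads to mm10, rn6 and MacaM (HISAT2 in the methods, BWA 0.7.10-r789 in the submitters' processing notes) and counted them with HTSeq-count on merged exons without strand. The deposited raw counts per gene were used. The normalized signal deposited by the authors was not used. Exonic and spanned lengths are those of the deposited tables. Rows naming no gene (0.00261% to 0.0663% of reads) were left out, and rows of the same symbol were summed.

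Each of mouse and macaque was fitted on its own (edgeR 4.0.16 under R 4.3.3, quasi-likelihood test with TMM factors, Benjamini-Hochberg adjustment over all genes with a read). Standard errors came from the log2 fold change over the square root of F. Replicates were mouse pools or macaque animals. Rat ratios had 1 read added. Alternatives were DESeq2 1.42.0, the exact test, other factors, filters and thresholds, assumed pairs as a block, and each library left out. The paper states that the sites were paired, without naming pairs. Macaque deviations from site means correlated at 0.211 (G1 and G2), 0.293 (G3 and G4) and 0.457 (T1 and T2) over 10996 genes, so these neighbours were taken as pairs. The steps were tested on simulated data: with 200 genes changed by a log2 of 2, the mouse step over 21738 genes recovered 153 and the macaque step over 18449 genes 198. Unchanged genes made up 10.5% and 15.4% of those calls. In rat, with a log2 of 3 and counting noise only, 200 were recovered and 44.4% of the genes past the ratio were unchanged. The changed genes had more reads than mouse HOXB5, HOXB7, HOXB8 and HOXB9 and macaque HOXB5, and than rat HOXB3, HOXB5, HOXB8 and HOXB9. The recovery therefore does not apply to these members. Named genes were the 8 members, lists of neighbours, cofactors, regulators and cell type markers, and the 10 genes most like the members. Members and lists were chosen with earlier results of these data known. Marker lists not described in the text (osteoblast, erythroid, B cell, T cell, megakaryocyte, endothelium, adipocyte, osteoclast, and tendon and periosteum) are given under the closing observations. Some sequences are not reported here.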

Additional observations from a re-analysis of the deposited data

Results flagged for a closer look

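The site difference of HOXB3 differed between species by the test of the interaction: the log2 fold change of calvaria over tibia was 4.32 higher in mouse than in macaque (edgeR adjusted p = 0.0658). It was called in 12 of 14 alternatives, with a value between 3.52 and 4.85, and it was not called without mouse tibia M5 or M7. HOXB3 was lower in every calvaria library than in every tibia library in both species. No group held the 4 to 10 samples needed to look for a library far from the others.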

How the results depend on the processing

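All mouse, macaque and rat members kept their direction in all alternatives that tested them. The 3 mouse members called became 5 with the edgeR exact test, 1 at a false discovery rate under 0.05, and 0 with filterByExpr, with a read required in every library, or with symbols shared by 3 species. These filters tested 7, 4 and 3 members, of which 5, 2 and 2 had an unadjusted p under 0.05, and over all genes called 29, 14 and 20 instead of 510. Leaving out 1 library gave between 1 (M5) and 8 (M8) mouse members, with 220 and 3816 of all genes called, and up to 7470 (M4). With the replicate block of M4 with M5 and M8 with M7, 2 mouse members were called (HOXB7 had an edgeR adjusted p of 0.222), and with the other assumed pairing 3; the mouse check of pairing was uninformative, so these are not known pairs. In macaque the replicate block called all 3 members and 4784 genes instead of 3724, and requiring a read in every library left HOXB7 alone to be tested and called, a count of 1. Library size alone moved the median of all macaque genes to -0.18, and all 3 members stayed called.

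Between species, leaving out 1 library gave between 0 (M5 or M7) and 2 (T2) members called, with 33, 37 and 826 of all genes instead of 463; no block was fitted there. The HOXB5 difference, near 0, changed sign with library size alone (-0.093), with DESeq2 (-0.0729) and without M7, M8, G1, G3 or T2 (-0.0937 to -0.79), while the leave-one-out fits as a whole reached 4.13 (T1, after which macaque calvaria had no HOXB5 read). In rat 6 or 7 members passed the ratio in every setting, while all genes past it ran from 690 (5 reads added) to 6072 (a log2 ratio of 1), and with 5 reads added the log2 ratios of HOXB6 and HOXB7 moved to -3.42 and -3.71. The causes were not tested. With 0 to 4 reads in most calvaria libraries, depth limits the size of the differences of HOXB5 to HOXB9.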

Other observations

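The marker lists not described above were read as sums of CPM. Erythroid genes were higher in macaque calvaria (1160 to 1410 against 253 to 375) and rat calvaria (8510 against 4280) and overlapped in mouse (912 to 2450 against 1300 to 1370). Megakaryocyte genes were higher in macaque calvaria (235 to 313 against 16 to 29.9) and rat calvaria (1230 against 462), and overlapped in mouse (1050 to 1340 against 785 to 1090). B cell genes were higher in macaque calvaria (39.8 to 47.4 against 11.3 to 26.8) and higher in tibia in mouse (264 to 268 against 233 to 234) and rat (437 against 300). EBF1 made up 31.7% of the mouse sum and 92.1% of the rat sum. Without it the mouse sites overlapped (170 to 181 in tibia against 155 to 176) and rat was higher in calvaria (38.4 against 19.9).

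Adipocyte genes were higher in mouse tibia (947 to 1140 against 185 to 507) and higher in macaque calvaria (1480 to 2360 against 750 to 1430), and were 184 in rat tibia and 107 in rat calvaria. FABP4 made up 99.8% of the macaque sum. Without it the macaque sites overlapped, at 2.03 to 7.07 CPM in calvaria and 0.755 to 2.13 in tibia. All 3 macaque genes tested were called higher in calvaria, against 10.3% of all macaque genes. Endothelial genes were higher in tibia in mouse (183 to 201 against 119 to 132) and rat (397 against 209) and overlapped in macaque (473 to 584 against 352 to 491). Tendon and periosteum genes were higher in tibia in macaque (39.9 to 49.3 against 7.82 to 11.2) and rat (34.9 against 13.0), and overlapped in mouse (102 to 116 against 85.3 to 509). Osteoblast, osteoclast and T cell genes overlapped between sites in mouse and macaque, with the rat values 5460, 1480 and 118 in tibia and 9960, 1190 and 60.2 in calvaria.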
